A study of Mus musculus with 6 samples.

Results

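Genes that mark neurons and their axons were followed in the proximal hindlimb bud of Lmx1b -/- and wild-type mouse embryos. The 10 genes, taken by symbol, were Tubb3, Nefl, Nefm, Ina, Prph, Stmn2, Elavl3, Elavl4, Isl2 and Mnx1. Every probe set whose platform annotation gave exactly 1 of these symbols was kept, which gave 21 of the 45037 probe sets tested, with all 10 genes measured. The samples were 3 Lmx1b -/- pools and 3 wild-type pools of E11.5 embryos (midgestation), all of the 129Sv strain. One array was hybridised per pool, and a pool held both hindlimb buds of 3 embryos, 6 buds in all, trimmed to about 500 µm of proximal tissue. LMX1B is the LIM homeodomain factor that gives limb mesenchyme its dorsal fate, and the labels give no Cre driver or other allele in either group.

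Motor and sensory axons grow into the hindlimb bud around this stage, while the cell bodies of those neurons lie outside the bud, in the ventral spinal cord and the dorsal root ganglia. Axons carry some messenger RNA, and neural tissue taken along at the base of the bud would add more. In mice without LMX1B, limb motor axons are known to choose between the dorsal and ventral limb at random. The 10 genes encode intermediate filaments, tubulin and a tubulin regulator, neuronal RNA-binding proteins and a pair of homeodomain factors of motor neurons, and they were used to gauge the nerve content of each pool.

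The data were log2 RMA values, in which 1 unit is a 2-fold difference, and differences are Lmx1b-null minus wild type. Array medians lay between 4.96 and 4.99, and arrays correlated at 0.993 to 0.997 over all probe sets within and between groups. The tissue markers fitted the label: 11 of 12 limb mesenchyme genes lay above the median of all probe sets, with Prrx1 averaging 11.07 in null pools and 11.20 in wild-type pools. The hindlimb factor gene Tbx4 averaged 10.20 in null pools and 10.49 in wild-type pools, whereas its forelimb counterpart Tbx5 averaged 4.14 in null pools and 4.27 in wild-type pools. A bulk array cannot tell fewer axons from less RNA per axon.

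The 10 genes were dim. Only 3 of the 21 probe sets, 1 each of Isl2, Stmn2 and Nefm, had a mean over the 6 pools above the median of all probe sets (4.98), and 6 lay below the lower quartile (3.33). Probe sets differ in affinity, so these positions describe signal on the array and do not rank the genes by abundance. None of the 21 passed an adjusted p of 0.05 (limma, Benjamini-Hochberg over all 45037), where 0.0844% of all probe sets did. At an unadjusted p under 0.05 there were 4 of 21, against 9.41% of all probe sets. The 3 null pools lay wholly above the 3 wild-type pools in 3 of the 21 and wholly below in 1, against 8.62% and 5.78% of all probe sets.

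**Figure D1:**
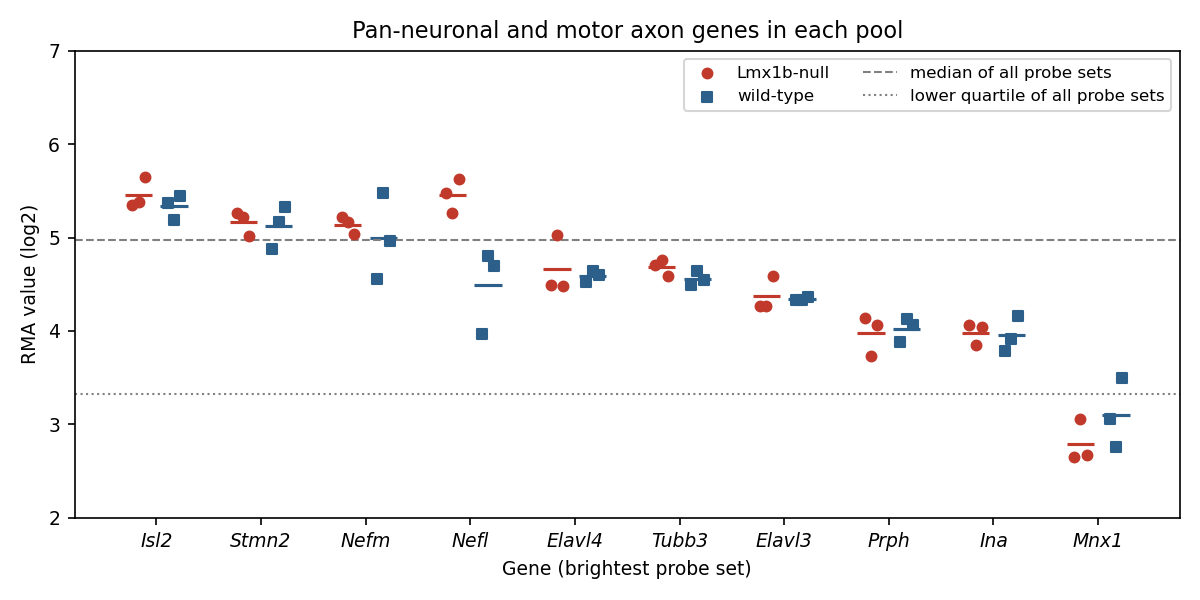
RMA values (log2) of the brightest probe set of each of the 10 genes, with a point per pool, circles for Lmx1b-null pools, squares for wild-type pools, and a short line for each group mean. Most genes sit below the median of all probe sets (4.98, dashed), and both Mnx1 group means lie below the lower quartile (3.33, dotted). Nefl alone shows its 3 null pools above its 3 wild-type pools.

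Among the filament genes, Nefl stood apart from the rest in the size of its difference. Nefl encodes the light neurofilament subunit, on which neurofilaments of large axons are built. Its brighter probe set read 5.47, 5.26 and 5.62 in null pools 1 to 3, against 3.97, 4.80 and 4.69 in wild-type pools 1 to 3. Its dimmer probe set read 5.0, 4.69 and 4.94 in null pools and 4.08, 4.54 and 4.48 in wild-type pools. In both probe sets every null pool was above every wild-type pool, and wild-type pool 1 was the lowest.

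The Nefl difference was 0.96 in the brighter probe set, or 1.95-fold (95% interval of the difference 0.48 to 1.44; SE 0.21; limma adjusted p = 0.212). In the dimmer one it was 0.51, or 1.42-fold (interval 0.20 to 0.82; SE 0.14; limma adjusted p = 0.315). Neither passed, so the higher Nefl signal is a difference that lies outside the spread of these pools but not past the threshold set over all probe sets. Without wild-type pool 1 the differences were 0.70 and 0.36.

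Nefm, the medium neurofilament subunit gene, did not share the separation. It read 5.22, 5.17 and 5.03 in null pools, against 4.56, 5.47 and 4.96 in wild-type pools. The wild-type pools spanned the null pools on both sides, and the difference was 0.14 (95% interval -0.32 to 0.60; limma adjusted p = 0.864). Without wild-type pool 1 it was -0.08, with the sign turned.

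Ina encodes internexin, a filament protein of young neurons, and Prph encodes peripherin, the filament protein of peripheral sensory and motor neurons. The brightest Ina probe set read 4.06, 3.85 and 4.04 in null pools and 3.78, 3.92 and 4.16 in wild-type pools, and the groups overlapped. The difference was 0.03 (95% interval -0.22 to 0.28), and the other Ina probe sets, both below the lower quartile, were at -0.01 and 0.04. The brightest Prph probe set read 4.14, 3.73 and 4.07 in null pools and 3.88, 4.13 and 4.06 in wild-type pools, with a difference of -0.05 (interval -0.32 to 0.23). The other Prph probe sets were at 0.11, 0.21 and 0.13, with overlapping groups in each. A pair of those Prph probe sets carries the _x_at suffix, which the array maker gives to probes that may also match other transcripts. All 4 Prph probe sets lay below the array median.

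**Figure D2:**
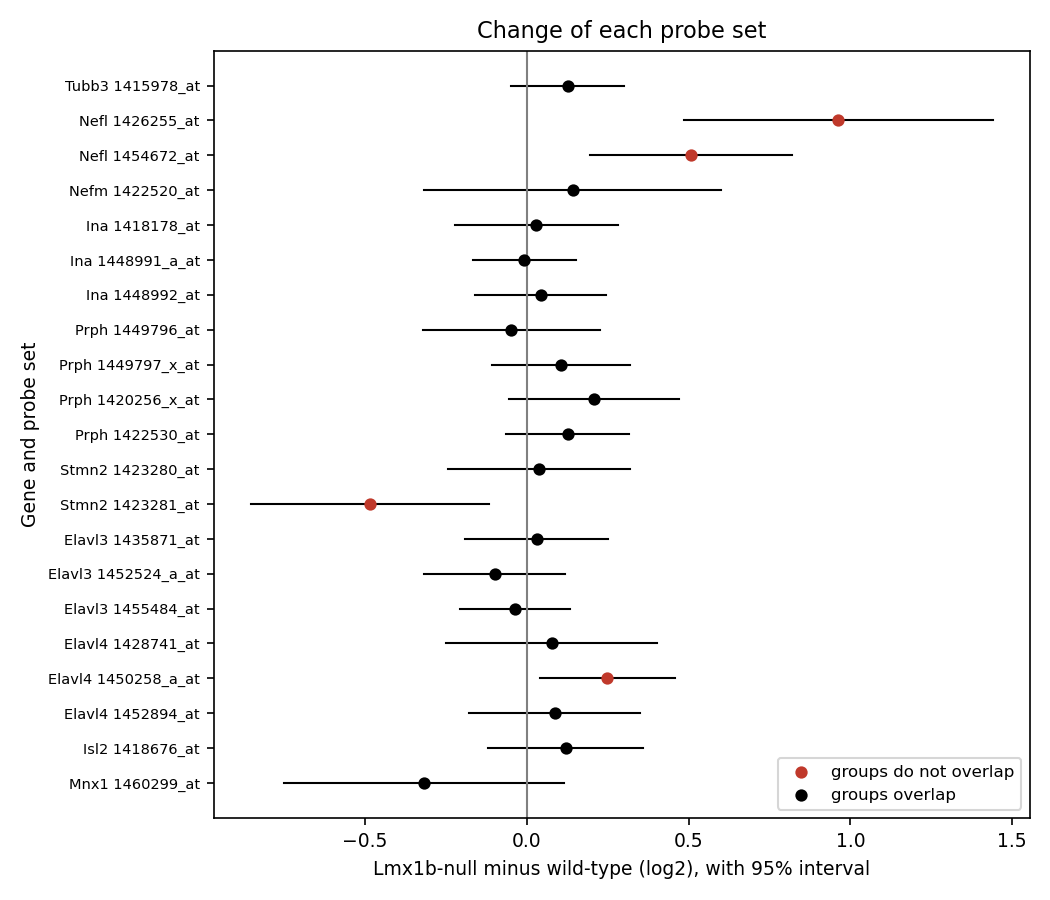
Difference of each of the 21 probe sets, Lmx1b-null minus wild type in log2 units, with its 95% interval from the limma fit. Filled red points are the 4 probe sets whose groups do not overlap: both of Nefl (0.96 and 0.51), 1 of Elavl4 (0.25) and 1 of Stmn2 (-0.48), none past an adjusted p of 0.05.

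Of the microtubule genes, Tubb3 gave a small difference and Stmn2 a different one in each probe set. Tubb3, the beta-tubulin gene used as a general neuron marker, read 4.70, 4.76 and 4.59 in null pools, against 4.49, 4.64 and 4.55 in wild-type pools. The groups overlapped over a narrow range, and the difference was 0.13 (SE 0.08; 95% interval -0.05 to 0.30; limma adjusted p = 0.64). All 6 pools lay within 0.27 of each other.

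Stmn2 encodes a stathmin that regulates microtubules in growth cones and injured axons, and its probe sets disagreed. The brighter one read 5.26, 5.22 and 5.02 in null pools, against 4.88, 5.17 and 5.33 in wild-type pools, with a difference of 0.04 (95% interval -0.24 to 0.32). The dimmer one read 4.34, 4.54 and 3.98 in null pools, against 4.74, 4.57 and 5.01 in wild-type pools. Here every null pool lay below every wild-type pool, although null pool 2 and wild-type pool 2 were separated by little. The difference of the dimmer one was -0.48 (interval -0.85 to -0.12, limma adjusted p = 0.425), not past the threshold. With Xist, a transcript of female cells that differs with the sexes of the pooled embryos, as a covariate it was -0.21. Adding Xist raised the SE of many probe sets (Isl2 from 0.10 to 0.15), so its level went partly with genotype. The part of sex and that of genotype in such values cannot be told apart. The platform annotation gives both probe sets the same source sequence, so which of them stands for the gene was not settled here.

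Elavl3 and Elavl4 encode the neuronal RNA-binding proteins HuC and HuD, which appear as neurons leave the cell cycle. The brightest Elavl3 probe set read 4.27, 4.27 and 4.58 in null pools and 4.34, 4.33 and 4.36 in wild-type pools, a difference of 0.03 (95% interval -0.19 to 0.25). The other Elavl3 probe sets were at -0.10 and -0.04. The brightest Elavl4 probe set read 4.49, 5.03 and 4.48 in null pools and 4.52, 4.64 and 4.60 in wild-type pools. Null pool 2 was the highest of the 6 for this probe set, and the remaining null pools were the lowest, so the difference of 0.08 (interval -0.25 to 0.40) rested on 1 pool.

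A dimmer Elavl4 probe set did separate the groups. It read 4.04, 3.82 and 3.87 in null pools, against 3.62, 3.80 and 3.57 in wild-type pools. The gap between null pool 2 and wild-type pool 2 was small, and the difference was 0.25 (95% interval 0.04 to 0.46; limma adjusted p = 0.461), or 0.12 with Xist as a covariate. The third Elavl4 probe set was at 0.09 with overlapping groups.

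Isl2 and Mnx1 encode homeodomain factors of spinal motor neurons, and a transcript of either is expected mainly in cell bodies. Isl2 read 5.35, 5.38 and 5.65 in null pools, against 5.37, 5.19 and 5.45 in wild-type pools. The groups overlapped, with a difference of 0.12 (95% interval -0.12 to 0.36; limma adjusted p = 0.754). Without null pool 3 the difference was 0.026, and without wild-type pool 2 it was 0.049. Mnx1 read 2.65, 3.06 and 2.67 in null pools, against 3.06, 2.76 and 3.50 in wild-type pools. Both Mnx1 group means lay below the lower quartile of all probe sets, where its difference of -0.32 (interval -0.75 to 0.12; limma adjusted p = 0.636) was measured near the bottom of the range. Without wild-type pool 3 it was -0.12, without wild-type pool 2 it was -0.49, and with Xist as a covariate it turned to 0.0485.

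The Isl2 probe set lay above the array median, while genes of the motor neuron transmitter did not. Chat, which encodes the enzyme that makes acetylcholine, averaged 2.95 in null pools and 3.00 in wild-type pools. Slc18a3, the vesicular acetylcholine transporter gene, averaged 3.34 in null pools and 3.31 in wild-type pools. Chat lay below the lower quartile of all probe sets in both groups.

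LMX1B and many other homeodomain proteins bind DNA at the core TAATTA, and TAATTG is a close variant. Promoter sequences of RefSeq (GRCm38.p6) were found for 7 of the 10 genes, with 10 start sites in all, and none was found for Nefl, Nefm and Stmn2. The 250 bases before each start were searched on both strands, TAATTA being its own reverse complement and CAATTA that of TAATTG. The core itself occurred before 2 of the 10 starts, both of them Elavl4 starts that share the same match, against 4.84% of 32851 promoters. The variant occurred before 2 of the 10, 1 of Elavl4 and 1 of Mnx1, against 7.17% of promoters. An example of each is shown because the arrays tested loss of a protein that reads this core, with TAATTA in capitals for Elavl4 and the variant in capitals for Mnx1, on the gene's own strand. The Elavl4 match to the variant is not printed. The first lies at chr4:110287694-110287759 (minus strand) and the second at chr5:29478684-29478720 (minus strand). A match describes letters in the window and does not show binding, and neither gene had a probe set past the threshold.
Elavl4: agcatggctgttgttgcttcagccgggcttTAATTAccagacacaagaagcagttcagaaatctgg
Mnx1: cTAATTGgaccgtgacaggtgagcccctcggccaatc

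The nerve content of a pool was summarised as the mean level of the brightest probe set of each of the 10 genes. It was 4.56, 4.57 and 4.58 in null pools 1 to 3, against 4.28, 4.51 and 4.57 in wild-type pools 1 to 3. The null pools were nearly equal, wild-type pools 2 and 3 lay at or just below them, and wild-type pool 1 was the lowest of all. The means were 4.57 ± 0.01 in null pools and 4.45 ± 0.15 in wild-type pools (SD, n = 3 each), a difference of 0.12 that was smaller than the spread of the wild-type pools. Without wild-type pool 1 the difference was 0.03, and without Nefl, a setting chosen after seeing the data, it was 0.02. Of the 10 genes, 8 were higher and 2 lower in null pools, with a median difference of 0.06, where 57% of all 18193 genes were higher and the median over all genes was 0.02.

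Wild-type pool 1 gave the lowest of the 6 values in 5 of the 10 genes and the highest in none. The mean over all 18193 genes was also lowest in that pool, at 5.97 against 5.99 to 6.01 in the others. So were the means of the further pan-neuronal, motor neuron, sensory ganglion and spinal cord lists. Limb muscle, ectoderm, Schwann cell and macrophage genes were lowest there on average as well. The 11 limb muscle genes averaged 6.70, 6.60 and 6.74 in null pools, against 6.17, 6.59 and 6.49 in wild-type pools. The 10 ectoderm genes averaged 6.72, 6.67 and 6.63 in null pools and 6.34, 6.61 and 6.61 in wild-type pools. Limb mesenchyme genes (9.07 in that pool) and erythroid genes (8.22) were lowest in null pool 3, at 9.04 and 8.14. Endothelial genes did not follow either, since they averaged 6.53 to 6.56 in null pools and 6.69 to 6.92 in wild-type pools, with pool 1 at 6.77. The part of tissue composition in the neuronal values was not tested.

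**Figure D3:**
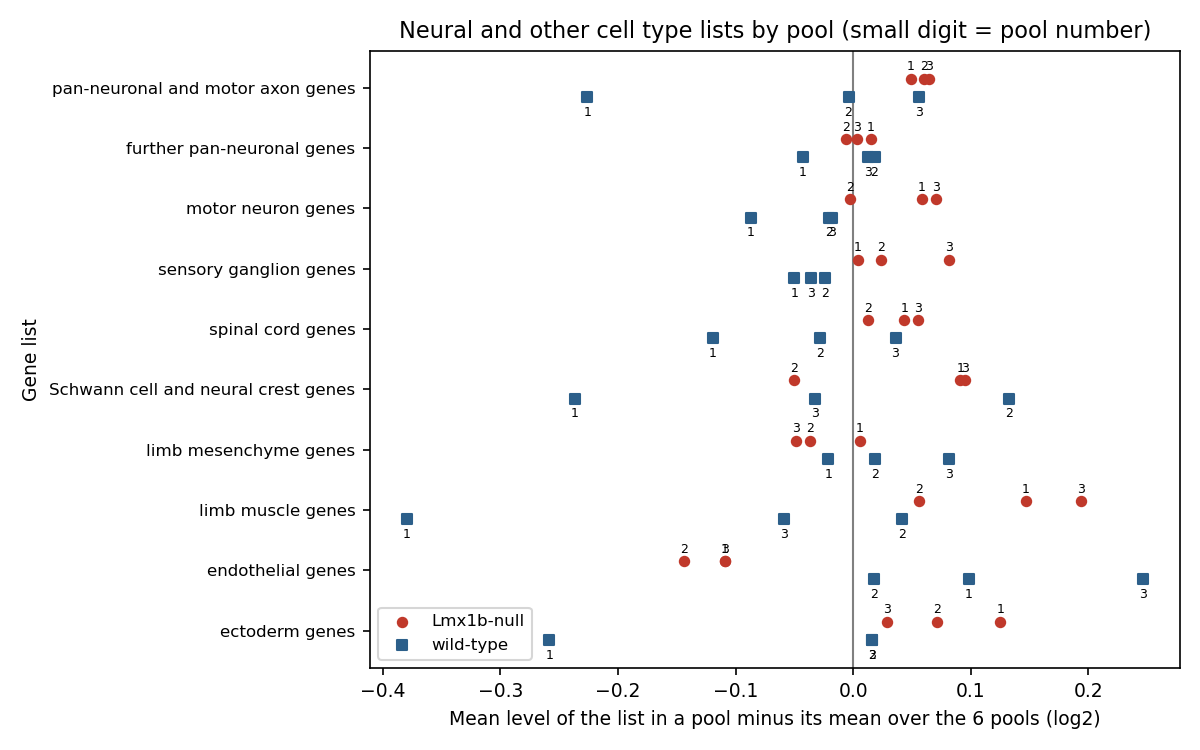
Mean level of each gene list in a pool minus its mean over the 6 pools (log2), with circles for Lmx1b-null pools, squares for wild-type pools and a small digit for the pool number. Wild-type pool 1 lies farthest left for the 10 neuronal genes (4.28 against 4.51 to 4.58 in the other pools). It also does so for the other neural lists and for Schwann cell, limb muscle and ectoderm genes, but not for limb mesenchyme or endothelial genes.

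Schwann cells and their neural crest precursors travel into the limb along the axons, so their genes give a separate reading of nerve. None of 14 measured genes passed at 1 probe set per gene, where 0.104% of all genes did; 10 were higher and 4 lower in null pools, with a median difference of 0.11. The mean level of the list was 5.47, 5.33 and 5.47 in null pools, against 5.14, 5.51 and 5.35 in wild-type pools, and the groups overlapped. Sox10, the transcription factor gene of the glial lineage, averaged 6.65 in null pools and 6.48 in wild-type pools, and Erbb3, the axonal neuregulin receptor gene of Schwann cells, averaged 7.27 in null pools and 7.05 in wild-type pools. Ngfr, the low-affinity neurotrophin receptor gene, averaged 7.26 ± 0.12 in null pools and 6.79 ± 0.25 in wild-type pools (SD, n = 3 each), a difference of 0.47 (limma adjusted p = 0.316) with no overlap. Which cells made the Ngfr signal was not tested. Pmp22, a myelin protein gene also made by mesenchyme, was at -0.23 (limma adjusted p = 0.438). Of the 14 genes, 9 lay above the array median, a share near that of all genes (10995 of 18193).

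Genes of the cell bodies were checked as lists. Of 19 sensory ganglion genes none passed, 14 were higher and 5 lower, with a median difference of 0.05. The mean of that list was 4.23 to 4.31 in null pools and 4.18 to 4.21 in wild-type pools. The groups did not overlap, with 0.03 between the closest pools. That was not particular to neurons: limb muscle and ectoderm means were separated in the same direction, by 0.01 each. Endothelial means were separated in the opposite direction. Of the 19, 7 lay below the lower quartile and 6 above the array median. Pou4f1 and Neurod1, transcription factor genes of sensory neurons, were among the 7: Pou4f1 averaged 3.06 in null pools and 3.09 in wild-type pools, and Neurod1 averaged 3.00 in null pools and 3.17 in wild-type pools. The bright members Six4 (8.68 in null and 8.67 in wild-type pools) and Tlx2 (6.06 in null and 6.01 in wild-type pools) were close to level. The neurotrophin receptor gene Ntrk2, which also marks other limb cells, averaged 6.16 in null pools and 5.89 in wild-type pools, a difference of 0.27 (limma adjusted p = 0.419). Ret and Ntrk3, receptor genes for GDNF family ligands and neurotrophin-3, had the smallest p of the list, with differences of 0.33 and 0.21 (adjusted p = 0.381 and 0.414).

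Of 16 spinal cord genes none passed, and 12 were higher and 4 lower, with a median difference of 0.03. The mean of that list was 3.93 to 3.97 in null pools and 3.80 to 3.96 in wild-type pools, and 8 of the 16 lay below the lower quartile. Olig2, the motor neuron progenitor gene, averaged 2.17 in null pools and 2.15 in wild-type pools, and the neural progenitor gene Sox2 averaged 3.05 in null pools and 3.16 in wild-type pools. Irx3 was bright, at 9.59 in null pools and 9.60 in wild-type pools, and is also a gene of proximal limb mesenchyme. The transmitter transporter gene Slc32a1 was at 5.55 in null and 5.55 in wild-type pools, and the Notch target Hes5 at 5.07 in null and 5.14 in wild-type pools. Foxa2, the floor plate gene, had the smallest p, with a difference of 0.20 near the bottom of the range (limma adjusted p = 0.406). Zic1, a dorsal neural tube and somite gene, read 3.63, 4.13 and 5.35 in null pools, against 2.83, 3.61 and 3.82 in wild-type pools, a difference of 0.95 with overlapping groups (limma adjusted p = 0.517). Null pool 3 was the highest pool for Zic1 and for the brighter Nefl probe set, whereas null pool 1 was the highest for the dimmer Nefl one. For Sox2, null pool 3 was the lowest pool (2.74).

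Of 17 further motor neuron genes none passed, with 13 higher, 4 lower and a median difference of 0.07. The mean of the list was 4.58 to 4.65 in null pools and 4.49 to 4.56 in wild-type pools. The groups did not overlap, as in the limb muscle and ectoderm lists, with 0.02 between the closest pools. The brightest members, Foxp1 (8.57 in null and 8.62 in wild-type pools), Isl1 (8.34 in null and 8.20 in wild-type pools) and Aldh1a2 (7.49 in null and 7.86 in wild-type pools), are also made by limb bud or body wall mesenchyme. Chodl, a marker of fast motor neurons, had the smallest p, at 3.65 in null and 3.11 in wild-type pools (difference 0.54; limma adjusted p = 0.339). Aldh1a2, the retinoic acid synthesis enzyme gene, was at -0.37 (adjusted p = 0.36).

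Among 44 further pan-neuronal genes, 1 fell, 0 rose and 43 did not pass at 1 probe set per gene, where 0.0879% of all genes fell and 0.0165% rose. Of the 44, 29 were higher and 15 lower, with a median difference of 0.05. The mean of the list was 5.31, 5.29 and 5.30 in null pools, against 5.25, 5.31 and 5.31 in wild-type pools, and the groups overlapped. Gap43, the growth cone protein gene, read 7.31, 7.34 and 7.48 in null pools, against 8.01, 7.98 and 7.87 in wild-type pools. Every null pool was below every wild-type pool, and Gap43 fell by 0.57 on the log2 scale (SE 0.07; gene-level limma adjusted p = 0.0491). The same probe set did not pass in the fit over all probe sets. The gene-level call held in 5 of 14 alternatives and was lost whenever 1 pool was left out, with adjusted p from 0.017 to 0.316 over the alternatives.

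Dcx, the gene of the migrating neuron protein doublecortin, was further apart but did not pass. It read 5.62, 6.76 and 6.43 in null pools, against 8.34, 8.19 and 7.90 in wild-type pools, with a difference of -1.87 (SE 0.26; gene-level limma adjusted p = 0.0762). It passed in 2 of 14 alternatives, array weights (adjusted p = 0.0467) and an intensity trend (0.0246), with a range of 0.0246 to 0.52. Its other probe sets were at -0.87, -0.78 and -0.16, the last below the lower quartile in null pools. Uchl1, an abundant neuronal ubiquitin hydrolase gene, went the other way, at 7.65 ± 0.11 in null pools and 7.10 ± 0.32 in wild-type pools (SD, n = 3 each; difference 0.54; adjusted p = 0.33). Dcx and Uchl1 were picked out after their values were seen. Which cells of the bud made the Dcx, Gap43 and Uchl1 signal was not tested.

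**Figure D4:**
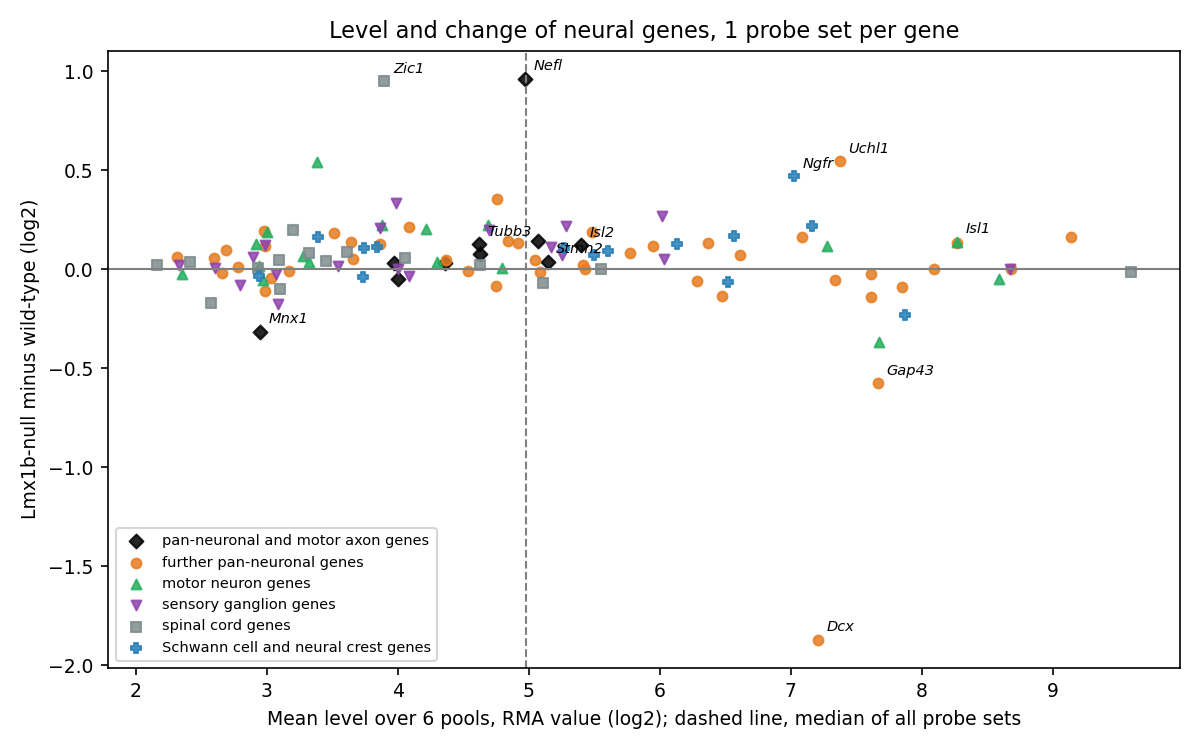
Mean level over the 6 pools (log2, horizontal) and Lmx1b-null minus wild-type difference (log2, vertical) of the 10 neuronal genes and of the further neural lists, 1 probe set per gene. Dcx (-1.87) and Gap43 (-0.57) lie low at a bright level, Nefl (0.96) and Zic1 (0.95) lie high, and most other genes lie near 0.

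An earlier look at these arrays had picked out neuronal-type genes for falling, so their direction is no independent evidence. Calb2, the calretinin gene, averaged 4.96 ± 0.28 in null pools and 8.31 ± 0.37 in wild-type pools (SD, n = 3 each). Syt13, a synaptotagmin family gene, and Cadps2, a vesicle release gene, had differences of -1.06 and -0.88 (gene-level limma adjusted p = 0.0354 and 0.03). Gria2, a glutamate receptor gene, was at -1.01 in its brightest probe set and did not pass (adjusted p = 0.0973), although a dimmer probe set at -0.96 did (limma adjusted p = 0.0371 over all probe sets). The Calb2 difference was -3.36, a size that its selection favoured, so it sets no scale for the 10 genes. Their differences ran from -0.32 to 0.96 in their brightest probe sets and from -0.48 to 0.96 over all 21 probe sets.

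Nefl and Nefm are neighbours on chromosome 14, with 0 protein-coding genes between them in RefSeq (GRCm38.p6). The transcription factor gene Ebf2 lies 5 protein-coding genes away from Nefl, and it rose, at 7.51, 7.36 and 7.56 in null pools and 6.43, 6.76 and 6.65 in wild-type pools (difference 0.86; gene-level limma adjusted p = 0.03). Among the measured genes between Ebf2 and Nefl, Cdca2 (-0.12), Kctd9 (-0.04) and Dock5 (-0.09) did not pass, and nor did Adam7 (0.06), Adamdec1 (0.30), Adam28 (0.19) and Stc1 (0.01) beyond Nefm. The groups did not overlap in Cdca2, lower in null pools, and in Adamdec1, higher in null pools and below the lower quartile. Of 1216 probe sets on chromosome 14, 6 passed, or 0.493%, against 0.0844% of all probe sets. That share covers the whole chromosome, and several probe sets can stand for the same gene, so it does not place changes near Nefl. Of the neighbours named here, Ebf2 alone passed at gene level. Whether position on the chromosome has a part in the Nefl difference was not tested.

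**Figure D5:**
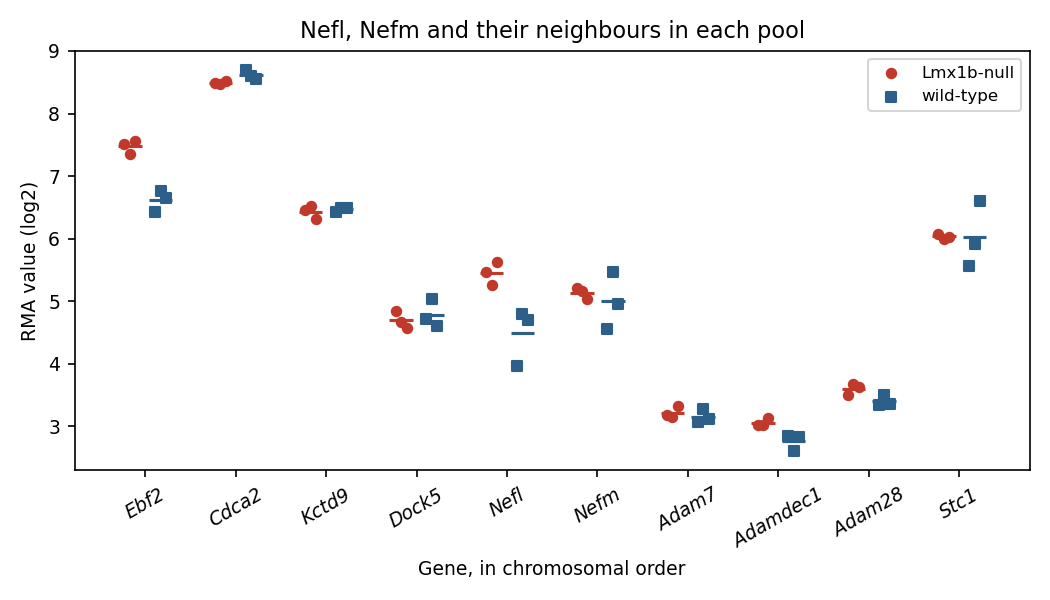
RMA values (log2) in each pool of the measured protein-coding genes next to Nefl on chromosome 14, in chromosomal order, 1 probe set per gene, with circles for Lmx1b-null pools, squares for wild-type pools and short lines for group means. Ebf2 (0.86) and Nefl (0.96) show the widest gaps between group means, Cdca2 (-0.12) and Adamdec1 (0.30) are separated by less, and the groups overlap in the other genes, Nefm (0.14) among them.

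Genes outside these lists with the most similar pattern were ranked by Pearson's r over the 6 pools against the mean centred profile of Isl2, Stmn2 and Nefm, the genes above the array median. That profile was 0.07, 0.05 and 0.03 in null pools 1 to 3 and -0.27, 0.07 and 0.04 in wild-type pools 1 to 3, so it described 1 low pool. The closest of 10894 genes were Trrap (r = 0.999), Rrp1b (0.995), Spin1 (0.993), Rbms3 (0.992) and Ypel2 (0.991). As many as 368 genes exceeded an r of 0.9, and the 6 pools share the same normalization, so the likeness is a description of these arrays.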

How the data were processed

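The deposited file holds log2 values, 1 for each probe set on each array, and per the submitters' processing notes the authors produced them by RMA, of unstated version. The log2 base was inferred from the range of the values. RMA equalises array distributions, so a shift of most transcripts would not be seen, and it compresses differences near the bottom. Of 45101 probe sets, 64 controls were left out. Symbols came from the platform annotation: 34945 tested probe sets had 1 symbol, 932 several and 9160 none. The 10 genes and the lists were chosen with earlier results of these data known.

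The null and wild-type pools were set against each other with limma 3.58.1, run in R 4.3.3 (lmFit, eBayes without trend or robust option, two-sided, Benjamini-Hochberg, threshold 0.05), over 45037 probe sets and over 18193 genes by their brightest probe set. An exact test of 3 pools against 3 cannot go below p = 0.1. The labels name separate pools of embryos, treated as biological replicates. Deviations from the group means correlated at -0.239, -0.088 and -0.168 between pools of equal number. No pairing by number showed, although 3 pools a group cannot exclude it. On data simulated for this comparison (45037 probe sets, 200 changed), 33.6% of log2 changes of 0.5 and 93.4% of changes of 1 were recovered, with 4.8% false calls. The simulated noise was independent between arrays and scaled to a typical probe set. The brighter Nefl probe set had an SE of 0.21, against a median of 0.08 over all probe sets, so these shares do not carry over to it. The text names all 10 genes, and from each of the 5 neural and glial lists the genes called, or else the 3 brightest and the 2 with the smallest p. Defining markers, the neuronal-type genes picked in an earlier look, Dcx, Uchl1 and the Nefl neighbours were added after their values were seen. Genes of like pattern were ranked by Pearson's r to the mean profile of Isl2, Stmn2 and Nefm, the members above the array median. Alternatives changed the variance model, normalization, brightness filter, pool block, Xist level and pools used.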

Additional observations from a re-analysis of the deposited data

How the results depend on the processing

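None of the 21 probe sets of the 10 genes passed under any of the alternatives run, 276 fits of a probe set in all (lowest adjusted p 0.128, without wild-type pool 1), although 0 calls at this depth of replication does not show equal levels. Signs turned in 23 of the 276, 15 of them with 1 pool left out. With all pools, the Xist level in the fit turned Elavl3 (-0.011 and 0.0204), Ina (0.0073 and -0.0072), Mnx1 (0.0485) and Nefm (-0.27), array weights turned Ina (0.0035) and repeated quantile normalization turned another Ina probe set (-0.0025). Leaving out 1 pool gave -0.0756 to 0.0832 and -0.0843 to 0.0205 for those Elavl3 probe sets, -0.10 to 0.17 and -0.0151 to 0.20 for Elavl4, and -0.0558 to 0.13, -0.0303 to 0.0387 and -0.0214 to 0.13 for Ina. It gave -0.0777 to 0.38 for Nefm, -0.13 to 0.0762 for the brightest Prph probe set and -0.085 to 0.14 for the brighter Stmn2 one. With 1 pool left out, the Isl2 difference ran from 0.026 to 0.18, and that of Mnx1 from -0.49 to -0.12. That of the dimmer Stmn2 probe set ran from -0.61 to -0.33. With the Xist level in the fit, Isl2 was at 0.21 and the dimmer Stmn2 probe set at -0.21. Both Nefl probe sets kept their sign in all alternatives. Leaving out 1 pool gave 0.70 to 1.12 and 0.36 to 0.60, and the Xist level in the fit lowered them to 0.62 and 0.32. Since the Xist level went partly with genotype, values with it in the fit are no clean correction for sex. The nerve content difference of 0.12 lay between 0.02 and 0.17.

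Over all probe sets and genes, 38 and 19 passed, 94 and 36 with an intensity trend, 69 and 36 with array weights, 9 and 5 with the Xist level, 14 and 9 with the pool number as a block, and 20 probe sets among bright ones. Without 1 pool it was 13 to 38 probe sets and 4 to 37 genes. The cause of these differences was not tested. The block changed no call among the 10 genes, and Gap43 did not pass with it (adjusted p = 0.183).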
